A study of Mus musculus with 34 samples.

Results

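The 10 genes described here encode the core of the microRNA pathway. They are *Drosha* and *Dgcr8* (the nuclear microprocessor), *Xpo5* (nuclear export), *Dicer1* and *Tarbp2* (cytoplasmic cleavage), *Ago1*, *Ago2*, *Ago3* and *Ago4* (the Argonaute proteins) and *Tnrc6a* (the scaffold that binds Argonaute). They were taken by name from a list, out of 23509 genes in each of 34 kidney libraries. All 10 passed the filter on low counts, which 15644 genes passed. Polyadenylated RNA from whole kidneys of C57BL6 mice was sequenced at postnatal day 28 (P28). The untreated group (UNT, n = 12) held wildtype, non-transgenic mice. The other mice were *Pkd2*-KO and had received either PBS (n = 11) or the oligonucleotide RGLS4326 at 20 mg per kg body weight (n = 11), both under the skin on days P10, P11, P12 and P19. The labels spell the genotype "Pdk2KO", and the study describes floxed *Pkd2* alleles deleted by a Cre recombinase driven from the *Pkhd1* promoter, which is active in kidney tubules and not in every kidney cell. UNT mice therefore differed from the PBS group in genotype and in injection together. RGLS4326 is a chemically modified oligonucleotide of 9 bases that pairs with the 5′ end of miR-17.

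A microRNA gene is transcribed as a long primary RNA. DROSHA, held to its substrate by DGCR8, cuts out a hairpin in the nucleus, exportin-5 carries the hairpin to the cytoplasm, and DICER1 with its partner TARBP2 cuts it to a duplex. One strand is loaded into an Argonaute protein, which is guided to target mRNAs by the seed (bases 2 to 8 of the microRNA). GW182 proteins such as TNRC6A then bind Argonaute and recruit the deadenylases that shorten the poly(A) tail. Among the 4 mouse Argonautes, AGO2 is the one known to cut a fully paired target. In polycystic kidney disease the miR-17 family is known to promote cyst growth.

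The mature microRNAs that share the seed of miR-17 are shown because RGLS4326 is directed at that seed, and because matches to it are counted below in the 3′UTRs of the 10 genes. Shown are 7 from RefSeq (GRCm38.p6) with the same seed, which is in capitals, and they differ from each other only outside it. The list may not be complete.
mmu-miR-17-5p: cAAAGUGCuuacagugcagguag
mmu-miR-20a-5p: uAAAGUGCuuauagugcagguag
mmu-miR-20b-5p: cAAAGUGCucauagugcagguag
mmu-miR-93-5p: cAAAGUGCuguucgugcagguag
mmu-miR-106a-5p: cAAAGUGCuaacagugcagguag
mmu-miR-106b-5p: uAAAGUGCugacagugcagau
mmu-miR-6383: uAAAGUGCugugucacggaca
Mature microRNAs are too short for these libraries. The hairpin rows of this family for miR-17, miR-20a, miR-93 and miR-106b held at most 3 counts in any library, so the level of the microRNAs themselves cannot be read from these data.

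The libraries held 17603122 to 54981992 reads in genes. The knocked-out gene *Pkd2* had a median of 273.9 CPM (counts per 1000000 reads in genes, TMM-scaled) in UNT, 164.7 in PBS and 210.3 in RGLS4326 kidneys, with no overlap between UNT and PBS. Kidney identity was clear from 6 of 6 proximal tubule markers and 5 of 5 markers of the thick ascending limb being detected, but the cell content differed between groups. The summed level of the proximal tubule markers ranged from 11109 to 14803 CPM in UNT and from 1080 to 3677 CPM in PBS kidneys. That of 6 fibroblast markers ranged from 443 to 1135 CPM in UNT and from 2490 to 5308 CPM in PBS kidneys, and that of 6 macrophage markers from 90.6 to 153 and from 557 to 1407 CPM. A higher or lower level in whole kidney cannot separate a change per cell from a change in the cells present. The share of reads that fell in no gene, called the no-gene share below, also differed, from 12.9% to 14.9% in UNT, from 6.08% to 11.0% in PBS and from 5.82% to 14.6% in RGLS4326 libraries. UNT and PBS libraries did not overlap in it, so group and no-gene share cannot be told apart in PBS vs UNT for any gene. The no-gene share was 13.9% to 14.6% in RGLS4326 replicates 5, 6, 7 and 11 and at most 10.9% in the other 7 treated mice. One library, PBS replicate 9, was the lowest of the PBS mice in 8 of the 10 genes, with 10.3 CPM of *Ago2* against 35.0 to 65.6 CPM in the other PBS mice. Numbering in the names of the deposited tables falls into 3 runs, and each of these 3 library sets holds mice of every group.

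Compared with UNT, PBS-treated *Pkd2*-KO kidneys had more RNA of both microprocessor genes, of *Xpo5*, and of *Ago1*, *Ago3* and *Ago4*. They had less of *Dicer1*, *Tarbp2* and *Tnrc6a*. Of the 10 genes, 9 passed an adjusted p of 0.05 (edgeR quasi-likelihood test, Benjamini-Hochberg over all tested genes), 6 higher and 3 lower. In the same comparison 82.1% of all tested genes were called, 43.1% higher and 39% lower, so the count for the 10 genes lies close to what any genes gave. The CPM of PBS and UNT mice did not overlap for 4 of the 10 genes, *Drosha*, *Dgcr8* and *Ago1* on the higher side and *Tnrc6a* on the lower, against 42.5% of all tested genes (22.7% higher and 19.8% lower). The median log2 fold change was 0.27 over the 10 genes and 0.04 over all tested genes.

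**Figure D1:**
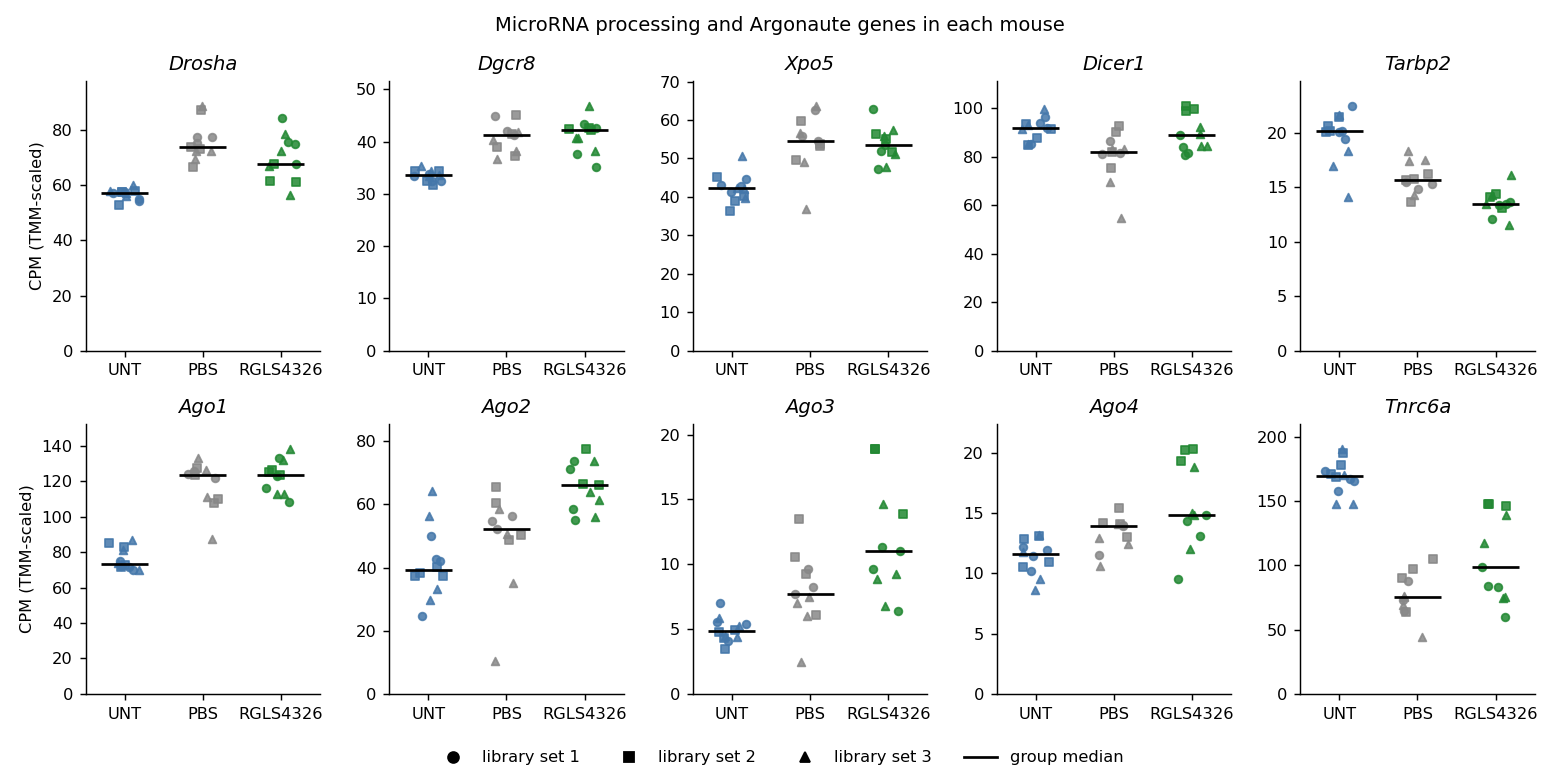
CPM (TMM-scaled, linear axes from 0) of each of the 10 genes in every mouse of the UNT (n = 12), PBS (n = 11) and RGLS4326 (n = 11) groups, with the marker shape giving the library set and the line the group median. *Tnrc6a* drops from a median of 169.3 CPM in UNT to 75.4 in PBS mice with a wide spread after treatment, and PBS replicate 9 is the lowest grey triangle in *Ago2*.

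RNA of the 3 genes for the nuclear steps rose. *Drosha*, the RNase III enzyme of the microprocessor (chromosome 15, 12824815 to 12935291, plus strand, GRCm38), ranged from 52.9 to 60.0 CPM in UNT with a median of 57.4, and from 66.7 to 89.0 CPM in PBS kidneys with a median of 73.9. Every PBS mouse lay above every UNT mouse, and the log2 fold change was 0.42 (SE 0.05, with adjusted p = 1.08e-08 in edgeR). *Dgcr8*, its double-stranded RNA binding partner (chromosome 16, 18253948 to 18289246, minus strand), ranged from 31.7 to 35.3 CPM in UNT with a median of 33.6, and from 36.7 to 45.03 CPM in PBS kidneys with a median of 41.2. These groups did not overlap either, with a log2 fold change of 0.28 (SE 0.04, with adjusted p = 2.48e-07 in edgeR). Exons of *Dgcr8* share 825 bases, 10.7% of their length, with *Trmt2a* on the opposite strand, which leaves its counts uncertain. *Xpo5*, the exporter of hairpins (chromosome 17, 46202782 to 46243598, plus strand), had a median of 42.2 CPM in UNT (36.3 to 50.6) and of 54.4 CPM in PBS kidneys (36.8 to 63.8). The ranges overlapped, with PBS replicate 9 the lowest PBS mouse, and the log2 fold change was 0.36 (SE 0.07, with adjusted p = 5.87e-06 in edgeR). With the no-gene share in the model, *Drosha* was no longer called (log2 fold change 0.13, adjusted p = 0.063 in edgeR).

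The cytoplasmic cleavage genes fell by small amounts. *Dicer1*, which cuts the hairpin to a duplex (chromosome 12, 104687742 to 104751952, minus strand), ranged from 84.9 to 99.8 CPM in UNT with a median of 91.8, and from 55.0 to 92.7 CPM in PBS kidneys with a median of 82.0. The groups overlapped, and the log2 fold change of -0.19 (SE 0.06, with adjusted p = 0.00414 in edgeR) turned to 0.11 (adjusted p = 0.129) when libraries were scaled by total counts and to 0.06 (adjusted p = 0.552) with the no-gene share in the model. Scaling by total counts moved the median of all genes up by 0.30, so *Dicer1* remained below that median. *Tarbp2*, which encodes the double-stranded RNA binding partner of DICER1 (chromosome 15, 102518192 to 102523676, plus strand), ranged from 14.1 to 22.5 CPM in UNT with a median of 20.1, and from 13.6 to 18.4 CPM in PBS kidneys with a median of 15.7. The log2 fold change was -0.31 (SE 0.07, with adjusted p = 5.97e-05 in edgeR), against -0.02 (adjusted p = 0.812) under scaling by total counts. Within library sets 1, 2 and 3 the mean log2 difference in *Tarbp2* was -0.41, -0.40 and -0.06.

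*Tnrc6a*, the GW182 scaffold (chromosome 7, 123123885 to 123195296, plus strand), showed the largest difference of the 10 genes in this comparison. Its level ranged from 147.6 to 190.5 CPM in UNT with a median of 169.3, and from 44.0 to 104.5 CPM in PBS kidneys with a median of 75.4. No PBS mouse reached the lowest UNT mouse, and the log2 fold change was -1.13 (SE 0.13, with adjusted p = 1.59e-09 in edgeR), a fold of 0.456. The difference was -1.14, -1.003 and -1.32 (log2) within library sets 1, 2 and 3. It was -0.23 (adjusted p = 0.037) with the no-gene share in the model, a quantity that itself did not overlap between PBS and UNT libraries, so both cannot be told apart in this comparison. The paralogs had smaller values. *Tnrc6b* had a log2 fold change of -0.20 (SE 0.12, with adjusted p = 0.115 in edgeR) and *Tnrc6c* one of -0.22 (SE 0.09, adjusted p = 0.0223), and under scaling by total counts they were at 0.09 and 0.07, below the shifted median of all genes (0.33). Whether *Tnrc6a* differed from its paralogs was not tested.

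Of the 4 Argonaute genes, 3 were called higher and *Ago2* was not called. *Ago1* (chromosome 4, 126435012 to 126468583, minus strand) ranged from 69.8 to 86.7 CPM in UNT with a median of 73.3, and from 87.2 to 133.1 CPM in PBS kidneys with a median of 123.8. All PBS mice were above all UNT mice, with a log2 fold change of 0.63 (SE 0.06, with adjusted p = 2.09e-12 in edgeR), and the difference was 0.77, 0.58 and 0.53 (log2) within library sets 1, 2 and 3. *Ago2*, which encodes the Argonaute that can cut its target (chromosome 15, 73095844 to 73184935, minus strand), ranged from 24.7 to 64.1 CPM in UNT with a median of 39.1, and from 10.3 to 65.6 CPM in PBS kidneys with a median of 52.2. The groups overlapped over most of their range, and *Ago2* was not called (log2 fold change 0.26, 95% interval -0.08 to 0.60, adjusted p = 0.154 in edgeR). The difference in *Ago2* was 0.48, 0.53 and -0.42 (log2) within library sets 1, 2 and 3. *Ago2* was called in library set 2 alone and with scaling by total counts, which moved the median of all genes up by 0.30. Without PBS replicate 9 the log2 fold change of *Ago2* was 0.34 (adjusted p = 0.00717 in edgeR), and 10 of the 10 genes were then called, against 82.4% of all tested genes.

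*Ago3* and *Ago4* flank *Ago1* on the same strand of chromosome 4. *Ago3* (126331704 to 126429556) was the least abundant, from 3.46 to 6.98 CPM in UNT with a median of 4.84, and from 2.48 to 13.5 CPM in PBS kidneys with a median of 7.71. Its log2 fold change was 0.69 (SE 0.19, with adjusted p = 0.00112 in edgeR), and the difference was 0.56, 0.98 and 0.10 (log2) within library sets 1, 2 and 3. *Ago4* (126489541 to 126533472) ranged from 8.60 to 13.2 CPM in UNT with a median of 11.6, and from 10.6 to 15.4 CPM in PBS kidneys with a median of 13.9. The log2 fold change of 0.23 (SE 0.10, with adjusted p = 0.032 in edgeR) did not pass the threshold in DESeq2 (0.20, adjusted p = 0.0641), nor when UNT replicate 1, 9 or 11 or PBS replicate 5 was left out. In the model with the no-gene share the log2 fold changes of *Ago2*, *Ago3* and *Ago4* were larger, at 0.53 (adjusted p = 0.0856 in edgeR), 1.49 (adjusted p = 3.61e-06) and 0.85 (adjusted p = 1.46e-09).

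Treatment with RGLS4326 gave fewer calls among these genes. Against PBS, *Dicer1*, *Ago3* and *Tnrc6a* were higher and *Tarbp2* was lower, and the remaining 6 genes were not called. Cell markers moved in the same comparison. Called higher were 4 of 6 proximal tubule, 4 of 5 podocyte, 4 of 5 endothelial and 3 of 5 thick limb markers, and called lower were 3 of 6 collecting duct, 3 of 6 macrophage, 4 of 4 T cell and 1 of 5 thick limb markers. Of the fibroblast markers 0 of 6 and of the proliferation markers 0 of 6 were called by edgeR (0 and 2 at an unadjusted p under 0.05) and by DESeq2. The summed proximal tubule level was 2237 to 4055 CPM in treated and 1080 to 3677 CPM in PBS kidneys, and that of macrophage markers 520 to 991 and 557 to 1407 CPM. The part of cell content in the values of the 10 genes was not tested. The 4 of 10 called compare with 33.8% of all tested genes, of which 15.3% were higher and 18.5% lower. Leaving out RGLS4326 replicate 5 or 6 gave 2 calls (25.9% and 25.6% of all tested genes), and leaving out replicate 4 gave 7 (38.7%). For none of the 10 genes were the CPM of both *Pkd2*-KO groups without overlap (0 of 10, against 0.0639% of all tested genes, 0.0447% higher and 0.0192% lower). The median log2 fold change was 0.11 over the 10 genes and 0.002 over all tested genes.

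**Figure D2:**
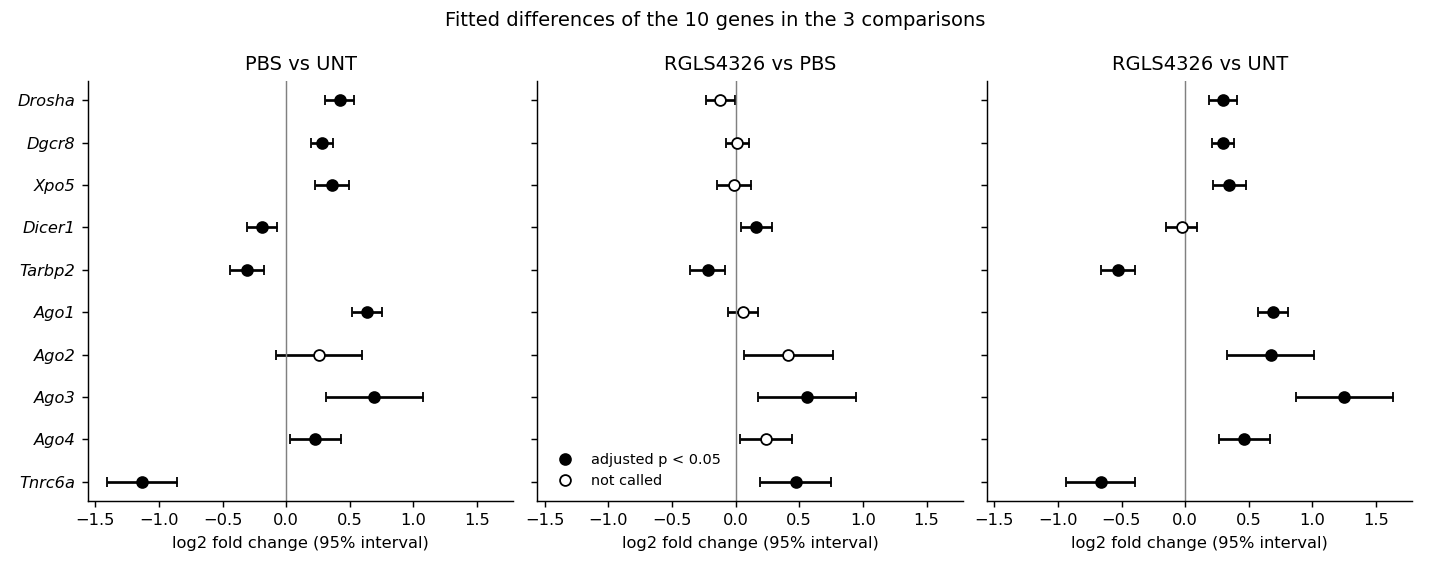
Log2 fold change (points) with 95% intervals (bars) of the 10 genes in PBS vs UNT, RGLS4326 vs PBS and RGLS4326 vs UNT, from 1 edgeR fit of all 34 libraries, with filled points for an adjusted p under 0.05. The comparisons share mice, and the treatment intervals of *Dgcr8*, *Xpo5* and *Ago1* include 0.

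*Tnrc6a* ranged from 59.4 to 147.6 CPM in treated kidneys with a median of 98.5, and the log2 fold change against PBS was 0.47 (SE 0.14, with adjusted p = 0.0111 in edgeR). Of the treated mice, replicates 5, 6, 7 and 11 stood at 139.4 to 147.6 CPM, above every PBS mouse. The other 7 treated mice stood at 59.4 to 116.9 CPM. Of these, replicate 9 (116.9 CPM) was also above every PBS mouse, and the other 6 lay within the PBS range. These 4 mice were also the treated mice with 13.9% to 14.6% of reads in no gene. With that share as a covariate the log2 fold change of *Tnrc6a* was 0.05 (adjusted p = 0.675 in edgeR). The difference was 0.10, 0.74 and 0.59 (log2) within library sets 1, 2 and 3. *Tnrc6b*, at 0.27 (SE 0.12, with adjusted p = 0.0788 in edgeR), and *Tnrc6c*, at 0.13 (SE 0.09, adjusted p = 0.247), were not called.

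*Ago3* ranged from 6.43 to 18.9 CPM in treated kidneys with a median of 11.0, higher than PBS by a log2 value of 0.56 (SE 0.19, with adjusted p = 0.0241 in edgeR). The difference in *Ago3* was 0.13, 0.78 and 0.72 (log2) within library sets 1, 2 and 3. RGLS4326 replicates 5 and 6, both at 18.9 CPM, were the highest, and leaving out either ended the call. *Ago3* and *Dicer1* were also not called when only the *Pkd2*-KO groups were fitted (adjusted p = 0.052 and 0.0749 in edgeR). With the no-gene share in the model neither was called. *Dicer1* ranged from 80.9 to 101.2 CPM with a median of 89.1 and overlapped both other groups. Its log2 fold change of 0.16 (SE 0.06, with adjusted p = 0.0385 in edgeR) was 0.13 (adjusted p = 0.0512) without PBS replicate 9, and the call was also lost without PBS replicate 4 or 10 or RGLS4326 replicate 5, 6, 7, 9 or 11. *Tarbp2* ranged from 11.6 to 16.1 CPM with a median of 13.5, and the log2 fold change was -0.22 (SE 0.07, with adjusted p = 0.0144 in edgeR). Within library sets 1, 2 and 3 the difference was -0.20, -0.13 and -0.27 (log2), and *Tarbp2* and *Tnrc6a* kept their calls whichever of the 34 mice was left out. *Tarbp2* was at -0.24 (adjusted p = 0.0907 in edgeR) with the no-gene share in the model, as large a difference as without it.

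Among the genes that were not called, *Ago2* came nearest. It ranged from 55.2 to 77.6 CPM in treated kidneys with a median of 66.2, and the log2 fold change against PBS was 0.41 (95% interval 0.07 to 0.76, adjusted p = 0.0584 in edgeR). Without PBS replicate 9 the log2 fold change was smaller, 0.32, and its adjusted p was 0.0421 (edgeR). *Ago2* was also called without PBS replicate 5 or 7 or RGLS4326 replicate 4. *Ago4* ranged from 9.53 to 20.3 CPM with a median of 14.9, and RGLS4326 replicates 5, 6, 7 and 11 were again the highest, from 18.8 to 20.3 CPM (log2 fold change 0.24, 95% interval 0.03 to 0.44, adjusted p = 0.0645 in edgeR). *Drosha* ranged from 56.6 to 84.5 CPM with a median of 67.8, and RGLS4326 replicates 6, 7 and 11, with 56.6 to 61.6 CPM, were its lowest mice (log2 fold change -0.12, 95% interval -0.23 to -0.01, adjusted p = 0.0854 in edgeR). With the library set as a term *Ago4* was called (log2 fold change 0.25, adjusted p = 0.033 in edgeR), and 5 of the 10 genes then passed, against 37.5% of all tested genes. Its direction turned, without a call, to -0.04 with the no-gene share in the model and to -0.01 in library set 1 alone. *Ago4* was also called without PBS replicate 5 or RGLS4326 replicate 3, 4 or 10, and *Drosha* without PBS replicate 7 or RGLS4326 replicate 4 or 10. For *Dgcr8*, *Xpo5* and *Ago1* the intervals of the treatment difference were -0.08 to 0.10, -0.15 to 0.12 and -0.06 to 0.18 (log2).

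The treatment calls depended on which libraries were compared. With library set 2 alone, 5 of the 10 genes were called, all higher (*Dicer1*, *Ago2*, *Ago3*, *Ago4* and *Tnrc6a*), against 25.5% of the genes tested there. The treated mice of this set are replicates 5, 6 and 7, so its whole treated arm had a no-gene share of 13.9% to 14.6%, against 6.54% to 11.0% in its PBS mice. With library set 1 alone edgeR called 0 of the 10 and 54 of all genes, and 0 of the 10 had an unadjusted p under 0.05. With library set 3 alone it called 0 of the 10 and 0 of all genes, with 2 of the 10 (*Ago3* and *Tnrc6a*) and 2826 of all genes below an unadjusted p of 0.05. These fits hold fewer mice, so a lost call alone does not show a smaller difference. For *Ago3*, *Tnrc6a*, *Tarbp2* and *Dicer1* the differences (log2) within set 3 were 0.72, 0.59, -0.27 and 0.28. Within set 1 they were 0.13, 0.10, -0.20 and 0.01. With the no-gene share in the model for all mice, 0 of the 10 genes and 0.927% of all tested genes were called for treatment by edgeR, and 1 of the 10, *Tarbp2*, had an unadjusted p under 0.05. DESeq2 was not run on these fits. In the fit of all mice without such a term it called 4 of the 10.

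**Figure D3:**
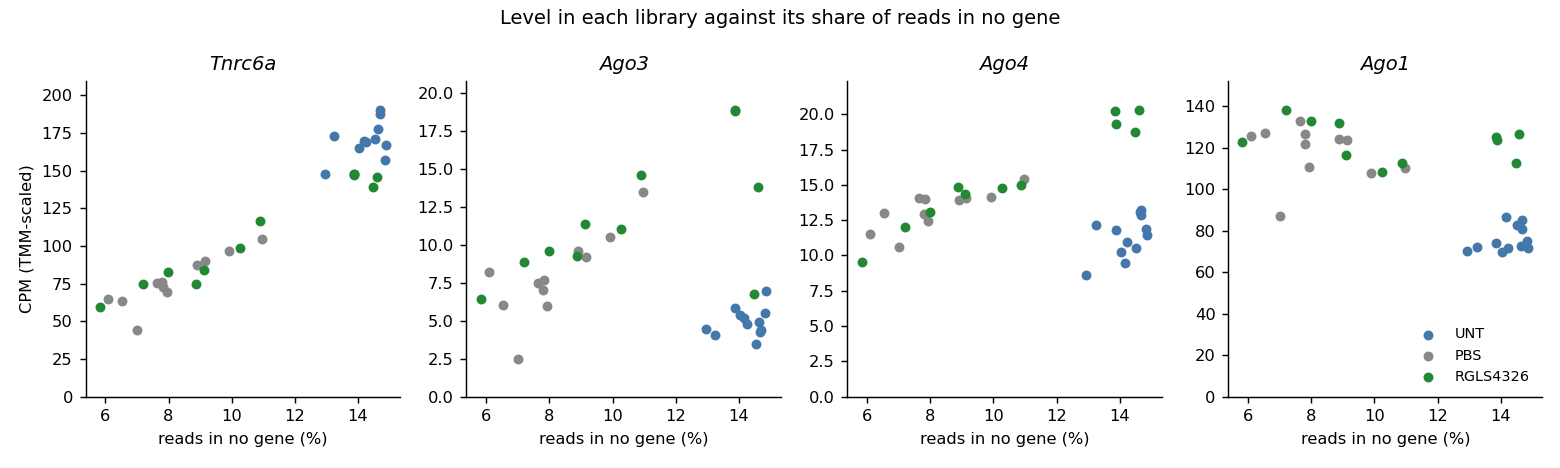
CPM (TMM-scaled) of *Tnrc6a*, *Ago3*, *Ago4* and *Ago1* in each of the 34 libraries against the share of reads in no gene (%), coloured by group. The 4 treated mice at 13.9% to 14.6% have the highest *Tnrc6a* and *Ago4* of their group, while *Ago1* separates UNT from both *Pkd2*-KO groups at any share.

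The no-gene share was examined further because it moved with several of the 10 genes within groups. As a term beside the 3 groups it was called for 5 of the 10 genes, against 40.9% of all tested genes. Per SD of the share, *Tnrc6a* was higher by 0.49 (SE 0.04, with adjusted p = 3.84e-11 in edgeR), *Ago3* by 0.44 (SE 0.11, adjusted p = 0.00142), *Ago4* by 0.33 (SE 0.04, adjusted p = 8.97e-08) and *Dicer1* by 0.13 (SE 0.03, adjusted p = 0.00212) on the log2 scale. *Drosha* was lower by a log2 value of -0.15 (SE 0.03, with adjusted p = 3.04e-05 in edgeR). *Ago1*, *Ago2*, *Dgcr8*, *Tarbp2* and *Xpo5* were not called for it. What sets this share in the libraries was not tested.

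Against UNT, treated kidneys had more RNA of *Drosha*, *Dgcr8*, *Xpo5* and all 4 Argonaute genes and less of *Tarbp2* and *Tnrc6a*, 9 of the 10 genes called against 77.7% of all tested genes (40.8% higher and 36.9% lower). *Ago3* was 2.38-fold higher (log2 fold change 1.25, SE 0.19, with adjusted p = 2.7e-07 in edgeR), *Ago1* 1.62-fold (0.69, SE 0.06, adjusted p = 2.73e-13) and *Ago2* 1.59-fold (0.67, SE 0.17, adjusted p = 0.00051). *Ago1* of treated mice, from 108.5 to 138.4 CPM, stayed above every UNT mouse. Levels without overlap were found for *Ago1* and *Tnrc6a*, against 36.7% of all tested genes (20.7% higher and 16.1% lower). *Tarbp2* was at a log2 fold change of -0.53 (SE 0.07, with adjusted p = 5.42e-09 in edgeR) and *Tnrc6a* at -0.66 (SE 0.13, adjusted p = 3.26e-05). For *Tnrc6a* the difference was -1.04, -0.26 and -0.73 (log2) within library sets 1, 2 and 3. *Tnrc6a* was at -0.18 (adjusted p = 0.0323 in edgeR) with the no-gene share in the model, *Drosha* at 0.12 (adjusted p = 0.0263) against 0.30 without it, and *Ago4* at 0.80 against 0.46. The highest treated mouse for *Tnrc6a* and the lowest UNT mouse lay next to each other, at 147.55 and 147.57 CPM, without crossing. *Dicer1* was at -0.03 (95% interval -0.15 to 0.09, adjusted p = 0.681 in edgeR) and was 0.28 (adjusted p = 0.000208) under scaling by total counts, which moved the median of all genes up by 0.30, to 0.33, so *Dicer1* was still below that median. This comparison shares its mice with the other comparisons.

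Levels per kilobase of annotated exon allow the genes to be set side by side. In UNT kidneys the median level was highest for *Tnrc6a* (13.3 CPM per kilobase), followed by *Drosha* (9.66) and *Ago1* (9.03), and lowest for *Ago3* (0.292). In PBS kidneys *Ago1* was highest (15.2 CPM per kilobase), ahead of *Drosha* (12.5), *Xpo5* (7.93) and *Tnrc6a* (5.93). The order depends on the length used. Per kilobase of coding exon, *Tnrc6a* (28.7) and *Ago1* (27.5) led in UNT, followed by *Tarbp2* (18.4), with *Drosha* at 13.9, and in PBS kidneys *Ago1* (46.5) led ahead of *Ago2* (20.2). *Ago3* was lowest by either length. *Ago1* made up most of the Argonaute RNA in every group. Of the summed per-kilobase level of the 4 Argonautes in each mouse, its median share was 65.1% in UNT (59.7% to 70.4%), 71.2% in PBS (63.8% to 81.7%) and 65.7% in RGLS4326 kidneys (61.7% to 72.7%). The median share of *Ago2* was 20.4%, 17.5% and 19.6% in these groups, that of *Ago3* 2.14%, 2.19% and 3.09%, and that of *Ago4* 11.5%, 9.46% and 9.70%. The ranges of all 3 groups overlapped for each of the 4 genes, and PBS replicate 9 held the highest *Ago1* share and the lowest *Ago2* and *Ago3* shares. The summed level was 14.1 CPM per kilobase in UNT, 21.4 in PBS and 23.3 in RGLS4326 kidneys (medians). The shares depend on the length as well. With coding exons only, the median *Ago1* share was 55.5%, 62.0% and 55.6% and that of *Ago2* 31.1%, 27.2% and 29.7%, a length chosen after the data were seen.

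**Figure D4:**
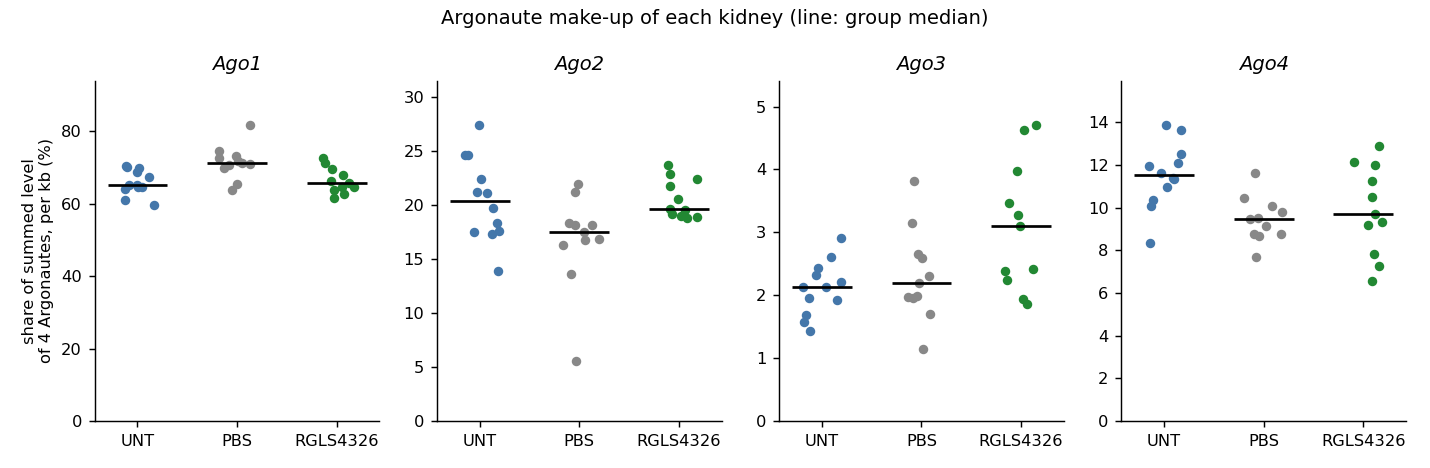
Share (%) of each Argonaute gene in the summed CPM per kilobase of annotated exon of *Ago1* to *Ago4*, for each mouse (points) with the group median (line), on axes that start at 0. *Ago1* holds 59.7% to 81.7% in all mice, and the groups overlap for each gene.

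Whether the 10 transcripts carry a match to the seed printed above was examined in the 3′UTR, the longest annotated one per gene (GENCODE M21, GRCm38). The matches searched on the transcript strand were the 7mer-m8 GCACTTT and the 7mer-A1 CACTTTA, which overlap in the 8mer GCACTTTA. At least 1 match was present in 5 of the 10 genes, against 21.9% of 14200 tested genes with a 3′UTR. All 4 Argonaute genes and *Tnrc6a* had a match, with 9 matches in all and no 8mer, whereas *Drosha*, *Dgcr8*, *Xpo5*, *Dicer1* and *Tarbp2* had none. Their 3′UTRs differ in length, with 12742 bases for *Ago3* and 11064 for *Ago2* against a median of 1316 over tested genes, and the share was not adjusted for length. Of the 9 matches, 7 are shown with 8 bases on either side and the match in capitals, to show where the matches lie in these genes. In a 7mer-A1 the last A lies opposite base 1 of the microRNA, outside the seed.
*Ago1* at chr4:126438522-126438544, minus strand: tgacatttGCACTTTcagacgtg
*Ago2* at chr15:73096827-73096849, minus strand: gagctgttGCACTTTctctgtaa
*Ago3* at chr4:126343692-126343714, minus strand: ggaactttGCACTTTgtaagtca
*Ago3* at chr4:126338991-126339013, minus strand: caacttttGCACTTTgcccagat
*Ago3* at chr4:126334711-126334733, minus strand: ttgcagctGCACTTTgagttact
*Ago4* at chr4:126492157-126492179, minus strand: tgtcctgtCACTTTAaaaaaaaa
*Tnrc6a* at chr7:123170011-123170033, plus strand: aaatccaaGCACTTTgaattcag
A match is a string of letters and not a measured site. The log2 fold change of RGLS4326 against PBS was 0.06 to 0.56 in the 5 genes with a match and -0.22 to 0.16 in the 5 without. These values were -0.04 to 0.31 and -0.24 to 0.06 with the no-gene share in the model, and the part of that share in this split was not tested. Over all tested genes its median was 0.09 with a match and -0.03 without.

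The RNA that hosts the miR-17 cluster was read as gene counts in the libraries of polyadenylated RNA. These counts do not give the level of the mature microRNAs. The study cites earlier work in which the miR-17 family was raised in human and mouse forms of the disease. *Mir17hg*, the primary transcript of miR-17 and miR-20a (chromosome 14, 115042879 to 115046727, plus strand), ranged from 7.67 to 11.6 CPM in UNT with a median of 10.0, and from 1.098 to 3.999 CPM in PBS kidneys with a median of 2.71. No PBS mouse reached the UNT range, and the log2 fold change was -1.97 (SE 0.33, with adjusted p = 1.92e-06 in edgeR). In treated kidneys *Mir17hg* ranged from 0.72 to 13.9 CPM with a median of 3.25, wider than both other groups together. Its log2 fold change against PBS was 1.12 (SE 0.34, with adjusted p = 0.0137 in edgeR), with 0.14, 1.73 and 1.20 from library sets 1, 2 and 3 alone. With the no-gene share in the model, *Mir17hg* was at 0.31 (adjusted p = 0.272 in edgeR) in PBS vs UNT and at -0.27 (adjusted p = 0.378) in RGLS4326 vs PBS. Both signs turned, but neither difference was called. The no-gene share itself did not overlap between PBS and UNT libraries, so both cannot be told apart in that comparison. *Mcm7*, the host gene of miR-93 and miR-106b, which encodes a replication helicase subunit, went the other way. Its median was 30.2 CPM in UNT, 48.7 in PBS and 45.8 in RGLS4326 kidneys, with log2 fold changes of 0.69 (SE 0.07, with adjusted p = 1.14e-10 in edgeR) in PBS vs UNT and -0.07 (95% interval -0.22 to 0.08) for treatment. *Mcm7* shares 321 bases of exon with *Ap4m1* on the opposite strand, and its annotated exons cover 88 bases of *Mir93* on the same strand. The summed level of 6 proliferation markers was 38.4 to 197.5 CPM in UNT and 131.7 to 218.3 CPM in PBS kidneys, and their part in the level of *Mcm7* was not tested.

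The wider pathway was followed with 80 further genes in 10 roles, of which 77 were tested. In PBS vs UNT, 31 were higher and 25 lower (56 of 77, against 82.1% of all tested genes), and with scaling by total counts 50 were higher and 13 lower. That scaling moved the median of all genes up by 0.30 and called 57.3% of all tested genes higher and 26.2% lower. Whether the split of the list differs from that was not tested. With the no-gene share in the model 34 of the 77 were called, against 66.4% of all tested genes. Without that term 43.1% of all tested genes were higher and 39% lower, and no role was tested against that. Among the cofactors of the microprocessor 4 of 13 were then higher and 8 lower. *Ddx5*, a helicase of the microprocessor, fell from a median of 1312 to 700.4 CPM (log2 fold change -0.96, SE 0.09, with adjusted p = 6.47e-12 in edgeR), and *Hnrnpa1*, which binds the loop of certain hairpins, was at -1.01 (SE 0.14, adjusted p = 2.21e-08). Of the deadenylases and their partners, 4 of 13 were higher and 6 lower. They included the deadenylase *Pan2* at -1.02 (SE 0.09, with adjusted p = 4.11e-13 in edgeR), and *Pabpc1*, the poly(A)-binding protein, at 0.82 (SE 0.06, adjusted p = 9.38e-15). Among the decapping and decay genes 6 of 12 were higher and 1 lower, and among those of microRNA tailing and turnover 5 of 10 were higher and 2 lower. *Ajuba*, which encodes a LIM-domain protein that binds Argonaute and also cell junctions, rose from a median of 40.8 to 142 CPM, higher by a log2 value of 1.78 (SE 0.12, with adjusted p = 1.27e-15 in edgeR). The other named genes were *Zc3h12a* (0.90, an RNase), *Xrn1* (0.73, the 5′ exonuclease) and *Adar* (0.73, an RNA-editing enzyme whose exons share 1365 bases with *Chrnb2*) on the higher side, and *Pnpt1* (-0.89, an exonuclease) and *Fmr1* (-0.79, an RNA-binding protein) on the lower. For *Xrn1* the groups overlapped, and PBS replicate 9 was lowest with 3.76 CPM.

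**Figure D5:**
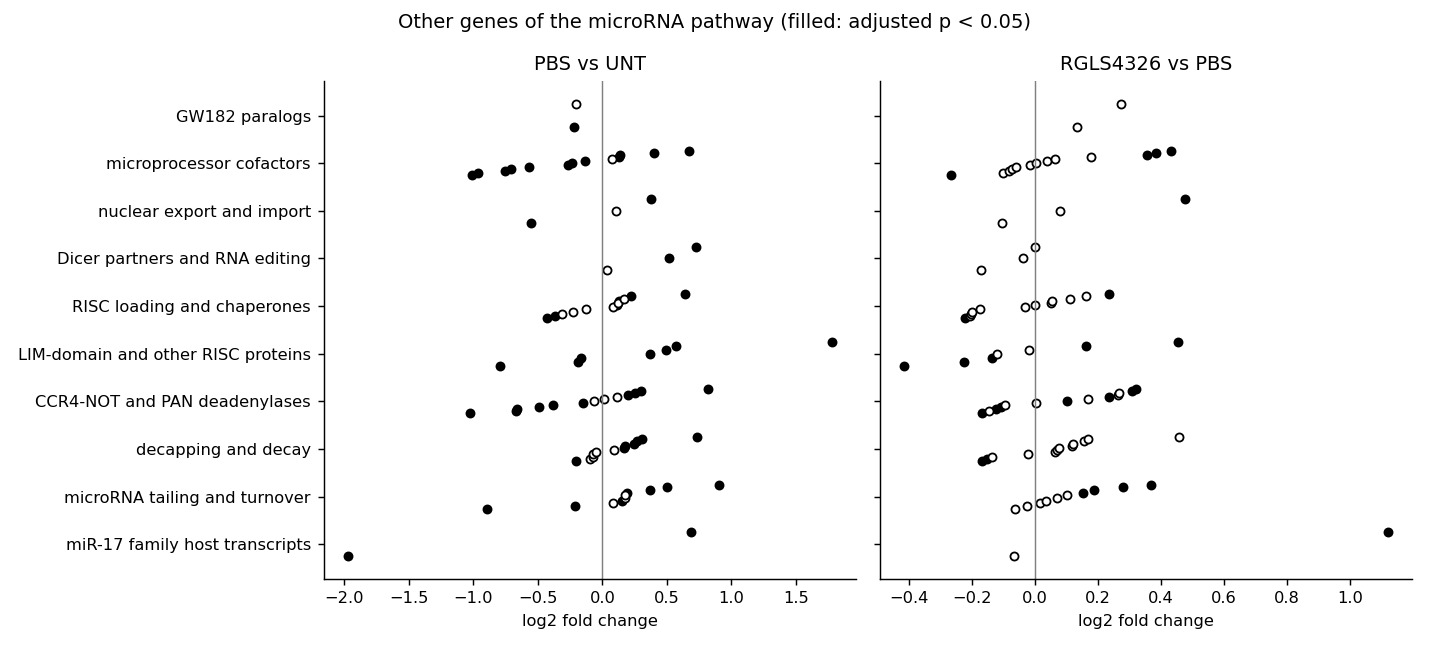
Log2 fold change of 77 tested genes of the wider microRNA pathway by role, in PBS vs UNT (left) and RGLS4326 vs PBS (right, a narrower axis), filled where the edgeR adjusted p is under 0.05. The counts are 31 higher and 25 lower on the left and 16 higher and 10 lower on the right, with *Mir17hg* the outermost point in the lowest row of both panels.

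In RGLS4326 vs PBS, 16 of the 77 were higher and 10 lower (26 of 77, against 33.8% of all tested genes). Among the called genes, the largest rises after *Mir17hg* were in *Xpo1*, the general nuclear export receptor (0.48, SE 0.13, with adjusted p = 0.00879 in edgeR), *Fmr1* (0.45, SE 0.12, adjusted p = 0.00694), *Ddx5* (0.43, SE 0.09, adjusted p = 0.00255), *Ddx17* (0.38, SE 0.12, adjusted p = 0.0155) and *Pnpt1* (0.37, SE 0.09, adjusted p = 0.00576). *Xrn1*, at 0.46 (SE 0.19, adjusted p = 0.0629), was not called. *Ddx5* had a median of 943.2 CPM in treated kidneys and ranged from 650.5 to 1144 CPM, which overlapped the PBS range of 566.1 to 816.9 CPM. By role, the higher genes were 4 of 10 for tailing and turnover, 4 of 13 deadenylases and partners, 3 of 13 cofactors of the microprocessor, 2 of 7 LIM-domain and other RISC proteins, 1 of 12 for loading, 1 of 3 for nuclear transport and 1 of 2 host transcripts. The lower genes were 3 of 13 deadenylases and partners, 3 of 7 LIM-domain and other RISC proteins, 2 of 12 for decapping and decay, 1 of 13 cofactors and 1 of 12 for loading. Of all tested genes 15.3% were higher and 18.5% lower, and no role was tested against that. *Ajuba* was at -0.42 (SE 0.12, with adjusted p = 0.0121 in edgeR) with a median of 109.8 CPM, *Erh* at -0.27 (SE 0.08, adjusted p = 0.0117), *Wtip* at -0.23 (SE 0.07, adjusted p = 0.0186), *Mov10* at -0.22 (SE 0.08, adjusted p = 0.0278), and *Cnot3* and *Eif4e2* both at -0.17. *Erh* shares 459 bases of exon, 17.5% of its length, with *Slc39a9* on the opposite strand. With the no-gene share in the model edgeR called 0 of the 77, and 14 had an unadjusted p under 0.05. Without PBS replicate 9 the count was 18 of 77, against 26% of all tested genes, with *Wtip* at -0.19 (adjusted p = 0.0562) and *Mov10* at -0.18 (adjusted p = 0.081) no longer called. The count was 16 without PBS replicate 4 or 11, 17 without RGLS4326 replicate 5, 6, 7 or 9, and 37 without PBS replicate 5. The share of all tested genes was 25.6% to 39.6% over the fits that left out 1 mouse. The call of *Cnot3* was lost without any 1 of 12 mice. In RGLS4326 vs UNT, 32 of the 77 were higher and 24 lower, against 77.7% of all tested genes, and 52 higher and 6 lower with scaling by total counts, which moved the median of all genes up by 0.30 and called 58.5% of all tested genes higher and 22.2% lower. *Cnot6*, a catalytic deadenylase (0.57, SE 0.12, with adjusted p = 3.67e-05 in edgeR), *Safb2* (-0.69, SE 0.10, adjusted p = 4.72e-08) and *Srrt* (-0.53, SE 0.07, adjusted p = 7.26e-09), both of the latter cofactors of hairpin cleavage, were named for this comparison.

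The genes that varied most like each of the 10 from mouse to mouse were listed by Pearson's r of log2(CPM + 1) over the 34 libraries, after the mean of each group within each library set was subtracted. *Ago2* varied most like *Hipk2* (r = 0.97), a nuclear kinase, *Dicer1* like *Kmt2c* (r = 0.95), a histone methyltransferase, and *Tnrc6a* like *Mdm4* (r = 0.93), a p53 regulator. The closest gene to *Drosha* was *Ap2b1* (r = 0.90), to *Ago3* *Gm608* (r = 0.88), to *Ago4* *Mier1* (r = 0.88), to *Ago1* *Dag1* (r = 0.88), to *Xpo5* *Ski* (r = 0.86), to *Tarbp2* *Ranbp3* (r = 0.79) and to *Dgcr8* *Dhx33* (r = 0.70). Of the 30 genes so listed, 3 for each of the 10, 29 had an annotated transcript length, and 25 of these had a longest transcript above the median of tested genes (3296 bases). The same held for 9 of the 10 genes themselves. Among the 10, *Dicer1* and *Ago2* (r = 0.88), *Xpo5* and *Ago1* (r = 0.82) and *Dicer1* and *Ago3* (r = 0.77) had the highest r over all libraries, and *Drosha* and *Tnrc6a* the lowest (r = -0.53). PBS replicate 9 was the lowest PBS mouse in both genes of each of the first 3 pairs, and without it r was 0.74, 0.71 and 0.62, and -0.66 for *Drosha* and *Tnrc6a*. The order then changed, with *Ago4* and *Tnrc6a* (r = 0.71) second and *Drosha* and *Ago1* (r = 0.62) ahead of *Dicer1* and *Ago3*. For the pairs with *Hipk2*, *Kmt2c* and *Mdm4* r was 0.93, 0.90 and 0.91 without this library. The 2 genes of each pair were read from the same libraries, so the depth, cell content and no-gene share of a library enter both values. Among the 10, *Tnrc6a*, *Ago3*, *Ago4* and *Dicer1* rose with the no-gene share and *Drosha* fell. The part of that share in these values of r was not tested.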

How the data were processed

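Kidney RNA of 34 mice was prepared by the authors as stranded mRNA libraries and sequenced as 75-base paired ends. Per the labels, FastQC (0.11.2), Trim Galore, STAR, SAMtools (1.1), HTSeq (0.6.1) and Picard (1.119) were used with GRCm38 (mm10). The deposited values were raw counts of uniquely mapped reads for each gene symbol in a separate table of each mouse, neither normalized nor pooled. The annotation and the strand setting of the counting are not given in the sources used here. Where exons overlap on either strand, counts are therefore uncertain. The last 5 rows of each table are totals of unassigned reads and entered no test. The share of reads in no gene was taken from them, over reads in genes, in no gene and ambiguous.

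Groups came from the labels. The members and lists were chosen with earlier results of these data known. Counts of all 34 libraries were fitted together with edgeR (4.0.16, R 4.3.3; TMM, filterByExpr, glmQLFit and glmQLFTest, two-sided, 3 groups, no covariate), and genes were called at a Benjamini-Hochberg adjusted p under 0.05 over 15644 genes. SE and 95% intervals were derived from the F statistic. The procedure was also run on counts simulated from its own fitted model with known changes. These held no difference between library sets or in the no-gene share, so the run says nothing about those. CPM are TMM-scaled. All 10 genes were named, with both GW182 paralogs, both host transcripts and up to 6 called genes per direction and comparison from the wider list. Reads in genes ranged from 17603122 to 54981992, and the lowest count of any of the 10 genes was 78. How much of the spread between libraries came from counting was not tested. Alternatives were RLE and total-count scaling, no filter, the library set, the share of reads in no gene or the replicate number as a term, only the groups compared, each library set alone, DESeq2 (1.42.0) and each mouse left out. The labels do not say whether mice shared a litter or a preparation batch, and p-values measure the spread between these mice. Gene positions and 3′UTRs were read from GENCODE M21 (GRCm38), and microRNA sequences from RefSeq.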

Additional observations from a re-analysis of the deposited data

How the results depend on the processing

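Under the other scalings, filters, terms, subsets and DESeq2, 274 of 330 log2 fold changes of the 10 genes kept their direction and side of the threshold. In library set 3 alone the calls were 4 (PBS vs UNT), 0 (RGLS4326 vs PBS) and 5 (RGLS4326 vs UNT) of the 10 genes and 32, 0 and 22 of the wider list, against 64.8%, 0% and 55.8% of all tested genes. In library set 1 alone the treatment calls were 0 and 0 (0.343% of all tested genes), and they were 2 of the 10 genes (29.2% of all) with only both *Pkd2*-KO groups fitted, where *Ago3* (edgeR adjusted p = 0.052) and *Dicer1* (0.0749) were lost. The counts at an unadjusted p under 0.05 for treatment (edgeR) were 2 and 9 in set 3 and 0 and 10 in set 1, and these subsets hold fewer mice. With the no-gene share in the model the treatment calls (edgeR) were 0 of 10 and 0 of 77, with 1 and 14 at an unadjusted p under 0.05, and 34 of the wider list were called in PBS vs UNT, against 0.927% (treatment) and 66.4% (PBS vs UNT) of all tested genes, and the cause was not tested.

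Directions turned as follows (log2). With that covariate, PBS vs UNT gave *Dicer1* 0.056, *Mir17hg* 0.31, *Tnrc6b* 0.27 and *Tnrc6c* 0.081, RGLS4326 vs PBS gave *Dgcr8* -0.018, *Xpo5* 0.024, *Ago4* -0.044, *Mir17hg* -0.27 and *Mcm7* 0.038, and RGLS4326 vs UNT gave *Dicer1* 0.12, *Mir17hg* 0.036 and *Tnrc6c* 0.091. With total counts, PBS vs UNT gave *Dicer1* 0.11, *Tnrc6b* 0.094 and *Tnrc6c* 0.075, and RGLS4326 vs UNT gave *Dicer1* 0.28 and *Tnrc6c* 0.22, all below the median of all genes, which this scaling moved up by 0.30 to 0.33. In library set 1, RGLS4326 vs PBS gave *Dgcr8* -0.096, *Ago1* -0.035, *Ago4* -0.011, *Xpo1* -0.015 and *Mcm7* 0.025, and RGLS4326 vs UNT gave *Tnrc6b* -0.038. In set 2 *Xpo5* was 0.023 (RGLS4326 vs PBS) and *Dicer1* 0.14 (RGLS4326 vs UNT). In set 3 *Ago2* was -0.24 (PBS vs UNT), *Xpo5* 0.041 (RGLS4326 vs PBS) and *Tnrc6b* -0.067 (RGLS4326 vs UNT). Without the filter *Xpo5* was 0.0033 for treatment. Beyond the total-count scaling, the causes were not tested.

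With each mouse left out in turn, the 10 genes gave 8 to 10 calls in PBS vs UNT, 2 to 7 in RGLS4326 vs PBS and 9 in RGLS4326 vs UNT, and the wider list 54 to 60, 16 to 37 and 54 to 59, against 81.1% to 82.4%, 25.6% to 39.6% and 76.8% to 79% of all tested genes. Without RGLS4326 replicate 4 there were 7 treatment calls, and without replicate 5 or 6 there were 2. The wider list fell to 17 without RGLS4326 replicate 5, 6, 7 or 9 and to 16 without PBS replicate 4 or 11. For treatment *Dgcr8* ranged from -0.0070 to 0.034 and *Xpo5* from -0.043 to 0.015 across 0. The treatment call of *Dicer1* was lost in 8 of these 34 fits and that of *Ago3* in 2.

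Mice of different groups share replicate numbers only as names: over 33 same-number pairs the correlation of deviations ran from -0.42 to 0.45, with 10 over 0.1, and the best correlate had the same number in 7 of 66 cases. The replicate block gave 9, 5 and 9 calls of the 10 genes and 57, 23 and 56 of the wider list, against 81.7%, 32.6% and 77.7% of all tested genes, and added *Ago2* for treatment (edgeR adjusted p = 0.0302).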
